A study of Mus musculus with 36 samples.

Results

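C57 liver before dosing was compared with the liver of 3 other inbred mouse strains, SJL, SMJ and DBA, in fasted mice that had not yet received acetaminophen. The comparison set the 3 arrays titled as C57 at 0 h against the equal-weight mean of the 0 h groups of the other strains, 9 arrays in all, out of 36 in the series. Each of the 4 groups held 3 mice, each on its own array of liver RNA. All 12 mice had been fasted overnight, for over 16 h, under a light cycle of equal light and dark, and the 0 h livers were taken before the dose. The other 24 arrays were of mice killed 3 h and 6 h after 300 mg/kg of acetaminophen, given into the abdomen. The series describes C57B6, DBA/2 and SmJ mice as sensitive to the injury this drug causes and SJL mice as resistant, so C57 was compared here with 1 resistant and 2 sensitive strains. The substrain, sex and age of the mice were not given in the sources used here.

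Mice of an inbred strain are nearly identical in genome, while strains differ at many sites, in deletions and in the number of copies of gene families. Such variants can change how much of a transcript is made. They can also change the sequence that a short array probe is meant to bind, so that a probe set reads a strain low although its transcript is present; a second probe set elsewhere in the transcript gives a separate reading. The Affymetrix array used here reads most genes through 1 or a few probe sets, and signals of different genes are not on 1 scale. In the fasted liver, hepatocytes burn fatty acids, make glucose and ketones, and hold the P450 enzymes that turn acetaminophen into its reactive product and the glutathione that traps it.

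The 12 arrays had the same trimmed mean signal of 150, and pairs from the same strain correlated between 0.948 and 0.963 across genes. The ratio of the 3′ to the 5′ probe set of actin, a sign of RNA integrity, averaged 1.64 in C57 and between 1.57 and 1.77 in the other strains. Albumin, the defining hepatocyte product, read 10884, 11051 and 13069.7 in the C57 livers and from 13175 to 20847 (median 14391) on the other arrays, a difference that did not pass the test (adjusted p = 0.0723), but did with a trended, robust estimate of the spread (0.0402) and without SJL1 (0.0438). Xist, the transcript of the inactive X chromosome in females, lay between 0.68 and 13.3 on all 12 arrays, below the median of all values of 30.8. Pancreatic transcripts differed widely between arrays of the same strain and are described below with the gene they touch.

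Of 13981 genes tested, 1707 (12.2%) differed at 0 h between C57 and the other strains' mean. A gene was called where the adjusted p of limma's moderated test, with Benjamini-Hochberg adjustment over all genes tested, was under 0.05. C57 was higher for 813 genes (5.82%) and lower for 894 (6.39%), and 438 of the differences were at least 2-fold. The split turned with the scaling, to 968 higher and 745 lower with arrays divided by their 75th percentile and to 904 and 834 with quantile normalization. The median difference over all genes was -0.015 on the log2 scale. Without C57182 the number called was 887, with 447 higher and 440 lower, and leaving out any other single array gave between 1189 and 1813. The C57 mean lay beyond those of all 3 other strains for 1580 of the called genes and between them for 127, which were 836 and 51 without C57182. The call rests on the distance from the mean of those strains, which favours such a place for C57. The share over all genes was not computed. A mean beyond the others need not differ from each of them, as for Nlrp12 and SJL below. The 3 C57 arrays lay outside the whole range of the other 9 for 7.4% of all genes tested, above it for 3.58% and below it for 3.81%. For 804 genes (5.75%) the difference was also called, with C57 above for 394 (2.82%) and below for 410 (2.93%). Against each strain alone, C57 was higher for 837 (5.99%) and lower for 953 genes (6.82%) relative to SJL, 12.8% in all. Relative to SMJ it was higher for 669 (4.79%) and lower for 696 (4.98%), 9.76% in all, and relative to DBA higher for 856 (6.12%) and lower for 797 (5.7%), 11.8% in all. These 3 comparisons share the C57 arrays. Dividing each array by its 75th percentile turned the split to 995 higher and 770 lower against SJL and to 870 and 533 against SMJ; quantile normalization gave 978 and 827 against SJL and 702 and 653 against SMJ.

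Several of the genes with the largest excess in C57 gave low signals in every other strain. Named here are the 15 largest called differences in each direction among genes with an official name whose C57 arrays lay outside the range of the other 9, and called members of the lists. Clone and microRNA names were passed over: of these, Gm7969 (5.75), 1810053B23Rik (3.90), Mir1931 (3.14) and AI506816 (-2.70) had log2 differences larger in size than some genes named. Mndal, a member of the interferon-inducible Ifi200 family, gave signals of 158.4, 136 and 126 in the 3 C57 livers and of 0.553 to 6.08 (median 1.43) on the other 9 arrays (log2 difference 4.92 ± 0.44 (SE), adjusted p = 1.09e-08). Adi1, an enzyme of the methionine salvage pathway, gave 1324, 1391 and 893 in C57 and 59.1 to 111 (median 81) elsewhere (3.79 ± 0.16, adjusted p = 7.26e-15). Ccnf, or cyclin F, a part of a ubiquitin ligase, gave 619, 561 and 618 against 39.8 to 65.1 (median 59.6) (3.38 ± 0.32, adjusted p = 3.42e-08). For each of these 3 genes the lowest C57 array lay far above the highest of the other 9, and the Mndal signals of the other strains were all well below 30.8, the median of all values.

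Pttg1, or securin, which holds back the separation of sister chromatids until anaphase, gave 612, 679 and 579 in C57 and 51.1 to 133 (median 67.3) in the others (3.07 ± 0.26, adjusted p = 2.9e-09). The defensin gene Defb1, which encodes an antimicrobial peptide, gave 710.4, 407 and 571 against 9.42 to 128 (median 53) (3.08 ± 0.37, adjusted p = 1.91e-06). Asns, or asparagine synthetase, a target of the amino acid response, gave 777, 411 and 488 against 19.8 to 201 (median 94.5) (2.99 ± 0.32, adjusted p = 3.35e-07). The zinc finger genes Zfp994 and Zfp874a and the ciliary gene Rpgrip1 were 9.64-fold, 8.34-fold and 9.06-fold higher in C57. By the choice of genes, none of their C57 arrays fell inside the range of the others.

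Another group of genes was highest in C57 but spread over the other strains as well. Nlrp12, which encodes a cytosolic sensor that restrains inflammatory signalling, gave 3741, 3552 and 4333 in C57, 2242, 3020.4 and 2322 in SJL, 144, 271 and 298 in SMJ and 29.2, 26.9 and 19 in DBA. C57 exceeded SMJ by 4.07 and DBA by 7.14 on the log2 scale (adjusted p = 3.66e-08 and 5.25e-13), while its difference of 0.62 from SJL did not pass (adjusted p = 0.331). Lpin1, a phosphatidate phosphatase that also acts with PPARA and PGC1A in the fasted liver, gave 6087, 5574 and 8545 in C57, 1376, 3117 and 1411 in SJL, 851, 1588 and 987 in SMJ and 73.2, 82.9 and 70.6 in DBA. All 3 of its pairwise differences passed, and the gap to DBA was the widest, at 6.40 (adjusted p = 1.4e-13). Nnmt, or nicotinamide N-methyltransferase, which uses S-adenosylmethionine, ran from 4836, 3525 and 5251 in C57 through 1684, 2267 and 445 in SJL and 1406, 473 and 171 in SMJ to 69.8, 167 and 167 in DBA (3.41 ± 0.51, adjusted p = 4.09e-05 for C57 against the mean of the others). The SJL and SMJ arrays overlapped each other for this gene, and the C57 arrays, by the choice of genes, overlapped none.

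Moxd1, a relative of dopamine beta-hydroxylase, was more variable, with 194, 157 and 582 in C57, 2.77, 6.5 and 1.5 in SJL, 30.6, 62.1 and 151 in SMJ and 22, 27.3 and 1.91 in DBA (3.83 ± 0.89, adjusted p = 0.00468). Without C57182 its adjusted p was 0.0619. The thyroglobulin gene Tg, best known from the thyroid, gave low signals of 34.8, 78.7 and 144 in C57 against 1.57 to 30.8 (median 5.72) (2.93 ± 0.59, adjusted p = 0.00128). The acetyltransferase-like gene Nat8f5 gave 158.4, 259 and 281 against 2.8 to 95.9 (median 42) (3.05 ± 0.86, adjusted p = 0.0183), and this call was lost without C57181 or C57182 (adjusted p = 0.0676 and 0.0987).

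**Figure D1:**
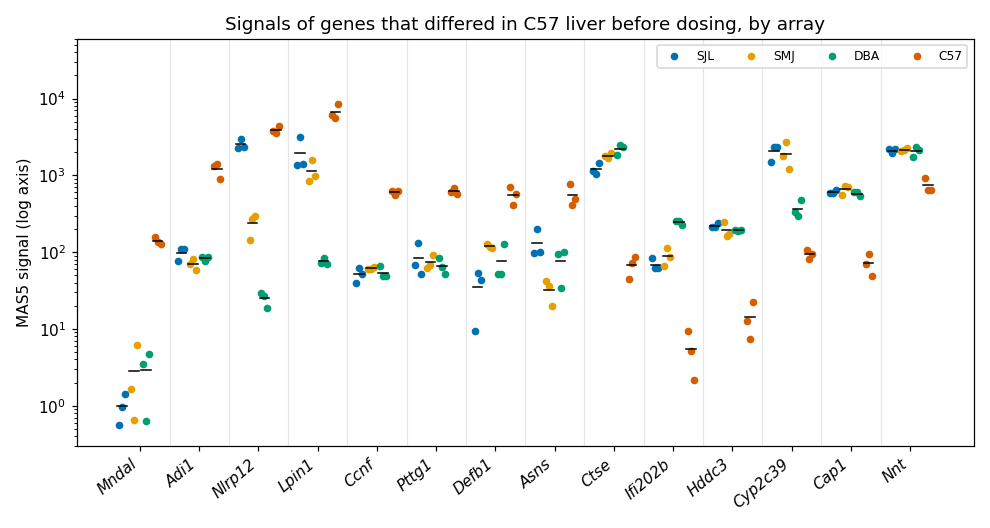
MAS5 signals at 0 h (log axis) of 8 genes higher and 6 genes lower in C57, with 1 point per array, 3 arrays per strain, and a black bar at each strain's mean. For all 14 genes the 3 C57 points lie outside the range of the other 9 arrays, which the choice of genes required for all but Nnt. Nlrp12, Lpin1 and Cyp2c39 also differ among the other strains.

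Among the genes so chosen with a lower signal in C57, Ctse encodes the aspartic protease cathepsin E. It gave 44.9, 72.7 and 86.1 in C57 and 1038 to 2485 (median 1769) in the others (log2 difference -4.63 ± 0.23 (SE), adjusted p = 1.1e-13). Ifi202b, another member of the Ifi200 family, gave 9.29, 5.23 and 2.13 in C57, 83.7, 61.5 and 61.8 in SJL, 65.4, 114.7 and 85.4 in SMJ and 257, 251 and 225 in DBA (-3.90 ± 0.35, adjusted p = 1.1e-08). Its probe set is of a kind that can also bind relatives, and the Ifi200 genes are near-identical copies in part, so both Ifi202b and Mndal are uncertain as readings of a single gene. Hddc3, which encodes a phosphohydrolase, gave 12.5, 7.38 and 22.5 against 160.4 to 244 (median 195) (-3.69 ± 0.26, adjusted p = 1.51e-10).

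Cap1, a regulator of actin turnover, gave 71.1, 95.7 and 48.4 in C57 and 538 to 736 (median 598) elsewhere (-3.10 ± 0.14, adjusted p = 7.26e-15). Pik3ap1, an adaptor of phosphoinositide 3-kinase, gave 113.2, 119 and 90.2 against 660.1 to 1179.8 (median 829.8) (-2.93 ± 0.21, adjusted p = 1.51e-10). The trafficking gene Tmem87a gave 25.3, 22.2 and 31.3 against 169.6 to 200 (median 187) (-2.73 ± 0.32, adjusted p = 1.27e-06). For these 3 genes every C57 array lay below the lowest array of the other strains, as the choice of genes required.

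Pi4kb, a phosphatidylinositol 4-kinase of the Golgi, was 8.16-fold lower in C57, the lysine methyltransferase gene Vcpkmt 4.99-fold, the chaperone gene Hspa13 4.82-fold and the phosphatase gene Dusp5 4.66-fold. None of their C57 arrays reached the range of the others, again by the choice of genes. Gdpd3, a lysophospholipase D, gave 4.76, 8.3 and 2.71 in C57 but was also low in SJL and DBA, at 33.4, 34.5 and 37.5 and 22.1, 22.2 and 40, and far higher in SMJ, at 451, 382 and 318 (-3.29 ± 0.44, adjusted p = 8.91e-06). Hsd3b2, a steroid dehydrogenase, gave 16.1, 25 and 17.5 in C57 and 32.2 to 262 (median 184) elsewhere (-2.61 ± 0.65, adjusted p = 0.00771). The non-coding transcript Hectd2os was lower at -2.17 ± 0.67, adjusted p = 0.0312, and lost its call without SJL4, C57180 or C57182 (adjusted p = 0.052, 0.198 and 0.078).

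Ctrc, which encodes the pancreatic digestive enzyme chymotrypsin C, was lower in C57 at 92.1, 49.1 and 47.5 against 1355, 3250.2 and 2134 in SJL, 128, 1276 and 647 in SMJ and 8551, 503 and 8069 in DBA (-4.57 ± 1.45, adjusted p = 0.0374). The call was lost when any of 9 single arrays was left out, with an adjusted p of 0.143 without C57182. Other pancreatic enzymes were also uneven between arrays of 1 strain. Ctrb1, or chymotrypsinogen B, gave 92.5, 1426 and 27.5 in C57, 6564, 13158 and 10051 in SJL, 459, 5869 and 3396 in SMJ and 14438, 2016 and 13616 in DBA (adjusted p = 0.148), and Cpa1 and Cela1 had adjusted p of 0.155 and 0.136. The summed signal of the 8 tested markers of pancreas, muscle and fat ran from 1115 to 7178 on the C57 arrays, 24140 to 37550 in SJL, 6737 to 16550 in SMJ and 7678 to 46180 in DBA. Their median difference was -1.67 on the log2 scale, against -0.015 over all genes, and 1 of the 8 was called: Car3, a carbonic anhydrase of muscle, fat and liver, at -1.93 ± 0.40, adjusted p = 0.00158. The part of pancreatic RNA in any difference between the strains was not tested. In whole liver, fewer cells of a type and less RNA per cell cannot be told apart.

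A mean over 3 strains can hide a level that C57 shares with one of them. Cyp2c37, a P450 enzyme that hydroxylates arachidonic acid, gave 1790.3, 3486 and 3696 in C57 and 4913, 3758 and 5756 in DBA, but 60.4, 28.8 and 47.8 in SJL and 3.72, 28 and 26.7 in SMJ. C57 therefore exceeded the mean of the others by 4.17 on the log2 scale (adjusted p = 4.14e-09), while its difference from DBA was -0.73 (adjusted p = 0.322). Cyp3a13, a P450 enzyme of drug oxidation, was shared with SMJ: it gave 3439.5, 2707 and 3995 in C57, 4775, 2992 and 2869 in SMJ, 832, 897 and 679.6 in SJL and 453, 774 and 543 in DBA, with differences of -0.047, 2.06 and 2.53. Alad, the second enzyme of heme synthesis, whose gene is known to vary in copy number among inbred mice, was low in C57 and SMJ and high in the other pair. It gave 797, 1139.6 and 683 in C57, 756, 878 and 998 in SMJ, 2704, 2532 and 2697 in SJL and 2845, 2652 and 2607 in DBA (-1.11 ± 0.17, adjusted p = 6.06e-05 against the mean of the others). For Hsd17b13, a lipid droplet enzyme, the called difference of 1.44 came with low signals in SJL, at 295, 232 and 209, while C57 at 6687, 5520.3 and 6256 overlapped DBA at 6198, 6412 and 6987. In Got1, which encodes cytosolic aspartate aminotransferase, DBA stood apart: C57 gave 8674, 7846 and 9855, DBA 1416, 1784 and 1425, and the differences from SJL and SMJ did not pass (adjusted p = 0.2 and 0.148).

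Second probe sets were checked for every called gene. Of the 813 genes higher in C57, 447 had at least 1 other tested probe set and 366 had none; of the 894 lower genes, 490 and 404. Among the 791 other probe sets of the higher genes, 212 (26.8%) were also called higher, 396 were higher without a call, 15 were called lower and the rest were lower without a call. Among the 873 other probe sets of the lower genes, 251 (28.8%) were called lower, 436 were lower without a call, 173 were higher without a call and 13 were called higher. At least 1 other probe set was called the same way for 37.1% of the higher and 38% of the lower genes that had one. For genes at least 2-fold apart, these were 48 of 91 higher genes (52.7%) and 47 of 99 lower genes (47.5%). Over all 30393 probe sets tested, 10.6% were called, 1496 higher and 1730 lower. The probe set that stands for a gene is the one with the highest mean signal among those not marked as shared, or among shared ones where a gene had no other, as for Ifi202b, Abcc2, H2-K1 and Serpina10. Whether a weaker signal of the other sets bears on the missing calls was not tested.

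Among the leading genes, several had a second reading that was called the same way. The other probe set differed by 4.84 for Mndal, 3.32 for Lpin1, 3.52 for Ccnf, 3.55 for Asns and 2.04 for Defb1. Both other sets of Pttg1 were higher, by 1.70 and 2.96. Those of Mndal, Ccnf, Asns and Defb1, and the set of Pttg1 at 2.96, are marked as shared and can also bind relatives. Among genes described below, the called second sets of Nnt, C2, Scarb1, Igfbp3, Gadd45b and Tbx3 are marked as shared too, and some of those of Ugp2 and Ppargc1a. On the lower side, the second set differed by -3.50 for Ctse, where it is marked as shared. For Cap1 it is not so marked and differed by -4.10, with a mean signal of 22.8 in C57. Other leading genes rested on 1 probe set. No other set was tested for Nlrp12, Moxd1, Nnmt, Zfp994, Zfp874a, Nat8f5, Tg or Ctrc, so these genes could not be checked. The same holds for Ifi202b, Cyp2c39, Gdpd3, Tmem87a, Hsd3b2, Vcpkmt, Dusp5 and Hectd2os. The second sets of Hddc3 (-0.37, adjusted p = 0.696), Pik3ap1 (-0.24, adjusted p = 0.582), Pi4kb (0.15, adjusted p = 0.702) and Rpgrip1 (0.23, adjusted p = 0.87) were not called, and those of Hddc3 and Rpgrip1 had C57 means of only 19.9 and 13.4. For Adi1, one further set was called higher, at 1.75, and another was not, at 0.03 with an adjusted p of 0.948 and a mean signal of 1206 in C57. Both are marked as shared. A sequence variant under the probes was not tested for any of these genes, since no probe sequences or strain genomes were used here.

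Some genes had probe sets called in opposite directions, among them 14 genes higher and 11 lower in C57 by the set that stands for the gene. Hspa13 had 4 tested probe sets: 2 were called lower in C57, at -2.27 and -1.69, and 2 were called higher, at 1.54 and 0.55. Wdfy1, an endosomal adaptor of Toll-like receptor signalling, had 4 sets called lower, between -1.73 and -1.54, and 1 called higher, at 1.87. The set of Hsd17b13 that stands for the gene was higher in C57, while its other set was lower, at -1.21. For Ang, which encodes the ribonuclease angiogenin, the set with its own probes was lower in C57 (-0.54 ± 0.15, adjusted p = 0.0171), at 1695, 1925 and 2257 against a range of 2329 to 3784. A set of Ang whose name marks shared binding gave 7008, 7838 and 8923 in C57 and from 158.4 to 320.5 on the other arrays, a difference of 5.29 ± 0.23 (SE) with an adjusted p of 1.08e-14. A further shared set was also higher, at 1.85 (adjusted p = 1.16e-07). The first shared set was higher at 3 h and 6 h as well, by 5.64 and 4.67 on the log2 scale. Its probes may bind a related ribonuclease, which was not tested.

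**Figure D2:**
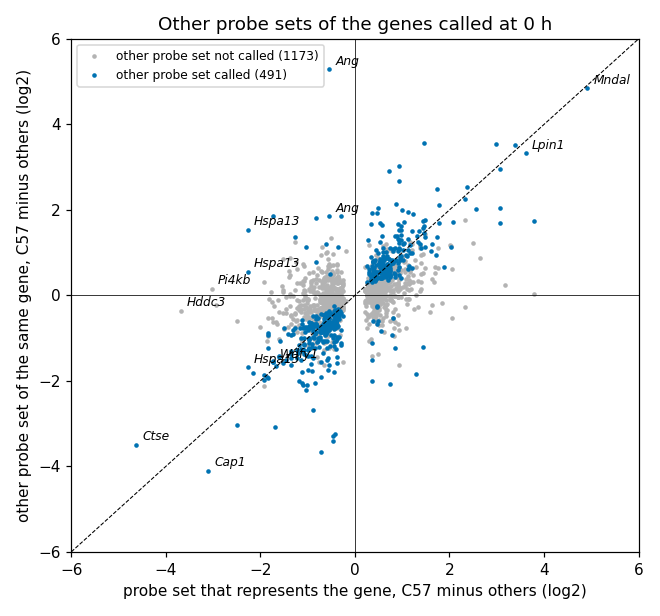
log2 difference at 0 h between C57 and the mean of the others in the probe set that stands for a called gene (horizontal) and in each of its other tested probe sets (vertical), with 1 point per other set and a dashed line of equal values. Of the other sets, 491 were called (blue) and 1173 were not (grey); points in the upper left and lower right quadrants, such as those of Ang and Hspa13, have opposite signs.

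The gene lists used here hold enzymes, pathways and cell markers of the liver, and 575 of their 685 genes were tested. Over all lists 117 of these genes were called, or 73 without C57180, and a list's share is set beside the 12.2% of all genes. P450 enzymes held called genes in both directions. Of 21 tested Cyp2 genes, 4 were higher and 6 lower in C57 (47.6%); of 21 Cyp3, Cyp4 and other P450 genes, 6 were higher and 2 lower (38.1%). Cyp2c39, a close relative of Cyp2c37, gave 106, 80.8 and 93.8 in C57, 1497, 2375 and 2374 in SJL, 1806, 2700.5 and 1221 in SMJ and 334, 293 and 473 in DBA (-3.53 ± 0.48, adjusted p = 1e-05), so that C57 was lowest and DBA next. Cyp2c70, which makes the muricholic bile acids of mice, gave 947, 757 and 1733 in C57 and 2201 to 3930.4 (median 3046) in the others (-1.44 ± 0.26, adjusted p = 0.000496). Cyp4a31, an omega-hydroxylase of fatty acids, gave 2459, 1821 and 2406 against 203 to 969 (median 294) (2.56 ± 0.21, adjusted p = 2.9e-09), and its second probe set was higher too, by 2.01. Cyp4f14 and Cyp2a12 were lower, at -1.0 ± 0.20, adjusted p = 0.00158, and -0.55 ± 0.10, adjusted p = 0.00039, with no overlap of arrays. The P450 genes form families of near-identical copies, and binding of one member by the probes of another was not tested.

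Of the 12 tested genes that activate or conjugate acetaminophen, 1 was higher and 2 were lower in C57 (25%), with a median difference of -0.25, which was -0.031 with quantile normalization; 1 was lower without C57180 or C57181, and 3 without SJL1. Cyp2e1, the main enzyme that turns acetaminophen into its reactive quinone imine, gave 11964, 12325 and 14135 in C57 and 13312 to 19792 (median 15552) in the others, and the difference of -0.32 did not pass (adjusted p = 0.258). The higher gene was Cyp3a13, described above. Cyp1a2, which also oxidises acetaminophen, gave 1967, 2889.8 and 3413 against 3663 to 5748 (median 4819) (-0.84 ± 0.25, adjusted p = 0.0247), a call lost without C57180 or C57181 (adjusted p = 0.203 and 0.0548). Ugp2, which makes the UDP-glucose from which glucuronic acid is built, was lower at -0.55 ± 0.093, adjusted p = 0.000203, and all 4 of its other probe sets were called lower, between -0.81 and -0.44.

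Genes of glutathione supply and the NRF2 response held 2 higher and 2 lower calls among 24 (16.7%). Gclc, the catalytic subunit of the rate-limiting enzyme of glutathione synthesis, gave 1169.7, 1275 and 771 in C57, 1710.2, 1608 and 1685 in SJL, 4918, 3290.2 and 3718 in SMJ and 2080.2, 2415 and 2909 in DBA (-1.26 ± 0.18, adjusted p = 3.19e-05). Every C57 array lay below all others, and SJL came next, with a pairwise difference that did not pass (adjusted p = 0.0518). Osgin1, an NRF2 target that restrains growth, gave 582, 361 and 401 against 646 to 2909.7 (median 1307) (-1.50 ± 0.25, adjusted p = 0.0002). The exporters Abcc2 and Abcc4, which carry conjugates into bile and blood, were higher in C57. Abcc2, read through a shared probe set, gave 928, 974 and 1248 against 276 to 819 (median 341) (1.37 ± 0.22, adjusted p = 0.000114), and Abcc4 differed by 1.35 ± 0.28, adjusted p = 0.00177. Of 19 glutathione transferases none was higher and Mgst3 and Gstm5 were lower, at -0.93 and -0.39 (10.5%, against 12.2% of all genes). Both calls were lost without C57182. Gstm5 lost its call in 7 leave-one-out fits, and also with 75th-percentile scaling (adjusted p = 0.0789) and quantile normalization (0.0768).

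Methionine cycle genes showed 1 higher and 1 lower call among 20 (10%). Bhmt2 and Bhmt, which return homocysteine to methionine, gave differences of -0.19 and -0.25 that did not pass (adjusted p = 0.507 and 0.215). Bhmt2 read 1266, 1336 and 1397 in C57 and 1160.2 to 1982 (median 1522) in the others. The called members were Suox, at 0.53, and Mtrr, at -0.61, both lost without C57180 (adjusted p = 0.0629 and 0.0746).

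Nnt, the mitochondrial transhydrogenase that makes NADPH for the glutathione and thioredoxin systems, gave 933, 653 and 647 in C57 and 2192, 1936 and 2188 in SJL, 2080.3, 2132 and 2292 in SMJ and 1735, 2317 and 2137 in DBA. It was 2.86-fold lower in C57 (log2 difference -1.52 ± 0.13 (SE), adjusted p = 3.22e-09), and the other 3 strains overlapped one another. A second probe set was lower by -1.57 (adjusted p = 1.29e-07, computed over all probe sets), and another, with a mean signal of 25.6 in C57, differed by -0.41 without a call (adjusted p = 0.527). A deletion within Nnt is known from the C57BL/6J substrain; the labels name no substrain. Of 27 transhydrogenase and respiratory chain genes, 1 was higher and 2 were lower (11.1%); the others called, Sdha and Ndufb8, differed by -0.19 and 0.22, and their calls were lost in 8 and 10 of 12 leave-one-out fits.

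**Figure D3:**
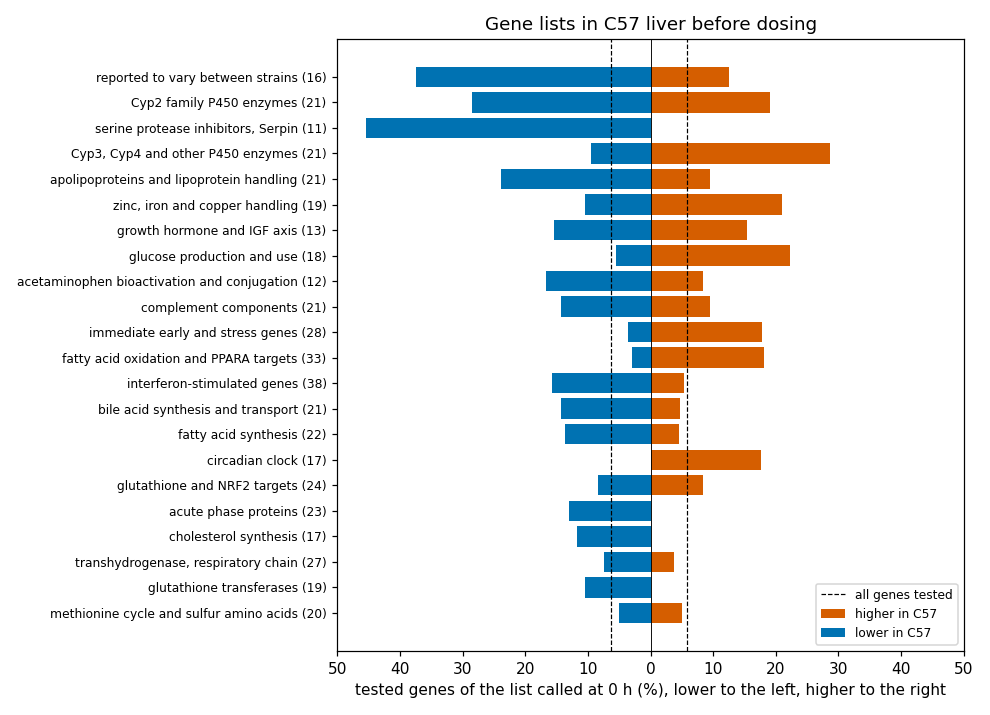
Share of the tested genes of 22 lists (number tested in brackets) called higher (right, orange) or lower (left, blue) in C57 at 0 h, with dashed lines at the shares over all 13981 genes, 5.82% and 6.39%. The Cyp2 list reaches beyond both lines, and the Serpin list holds lower calls only.

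Of 33 genes of fatty acid oxidation and PPARA targets, 6 were higher and 1 was lower (21.2%), which fell to 3 higher and none lower without C57180. The median difference of the list was 0.082, against -0.015 over all genes. Cidec, a lipid droplet protein that rises in fatty and fasted liver, gave 1043, 811 and 946 in C57 and 123 to 566 (median 226.1) in the others (2.12 ± 0.35, adjusted p = 0.000151). Pex11a, which drives peroxisome division, gave 2358, 2593 and 2785 against 880.5 to 2250 (median 1588) (0.80 ± 0.14, adjusted p = 0.000467), and its second probe set was higher by 1.09. Pdk4, the kinase that shuts off pyruvate oxidation in fasting, gave 3393, 1122 and 2698 against 367 to 1574 (median 571) (1.65 ± 0.37, adjusted p = 0.00374; adjusted p = 0.0532 without C57180). The lower member was Ppara itself, the receptor for fatty acids, at -0.93 ± 0.23, adjusted p = 0.00688, whose other probe sets differed by -0.40 and 0.28 without a call.

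Among 22 genes of fatty acid synthesis, Lpin1 was the 1 called higher, and Srebf1, Fads2 and Fads1 were lower. Srebf1, the insulin-driven regulator of lipogenesis, gave 137, 147 and 127 in C57 and 207 to 615 (median 372) elsewhere (-1.34 ± 0.22, adjusted p = 0.000125), and Fads2, a fatty acid desaturase, gave 1844, 1625 and 1270.5 against 2061 to 2996 (median 2642) (-0.72 ± 0.13, adjusted p = 0.000589). Neither gene's C57 arrays overlapped the others. Of the other sets of Fads2, 1 was called lower (-0.44) and 1 was not called (-0.29, adjusted p = 0.34). Of 17 cholesterol synthesis genes, none was higher and Stard4 and Fdft1 were lower (11.8%, near the 12.2% of all genes), and both calls were lost without C57182. Stard4 also lost its call without C57180 (adjusted p = 0.0732). Fdft1 lost its call in 9 leave-one-out fits, and also with 75th-percentile scaling (adjusted p = 0.0584).

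Glucose genes had 4 higher and 1 lower of 18 (27.8%), with 2 higher without C57182. Got1 and the fasting coactivator gene Ppargc1a, which turns on glucose production, were among the higher ones. Ppargc1a gave 211, 230.6 and 336 against 88.8 to 215 (median 118) (0.98 ± 0.25, adjusted p = 0.00956; adjusted p = 0.118 without C57182), and all 4 of its other probe sets were called higher, between 1.29 and 1.61. Gys2, liver glycogen synthase, was higher by 0.51 ± 0.12, adjusted p = 0.00606.

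Of 17 clock genes, Ciart, Per1 and Rora were higher and none was lower; without C57180 or C57182, 1 was higher. Per1 lost its call in 5 leave-one-out fits. Of the other probe sets of Rora, 1 was called higher (0.55), 1 was called lower (-0.67, adjusted p = 0.0344) and 5 were not called. Ciart, a repressor of the clock, had a mean of 81.2 ± 24.9 (SD, n = 3) in C57, whose lowest array read 54.1, and 2.36 to 57.8 (median 7.84) elsewhere, so that 1 C57 array overlapped the others (2.69 ± 0.45, adjusted p = 0.000181). The time of day at which each strain was killed was not given in the sources used here, and its part in these differences was not tested. Of 28 immediate early and stress genes, 5 were higher and 1 was lower (21.4%), with 3 and none without C57180. Gadd45b, a DNA damage and stress gene, gave 554, 345 and 614 against 111 to 268 (median 176) (1.49 ± 0.26, adjusted p = 0.000318); 1 other set was called higher (1.36) and 1 was not called (0.64, adjusted p = 0.257). Its relative Gadd45g gave 1275, 630.2 and 1423 against 124 to 849 (median 328) (1.80 ± 0.36, adjusted p = 0.0012), and Btg2, an antiproliferative gene, gave 566, 326 and 699 in C57 and overlapped SMJ at 1447, 325 and 304.

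Interferon-stimulated genes were called in 8 of 38 cases (21.1%), 2 higher and 6 lower, with a median difference of -0.50 against -0.015 over all genes. Without C57180 or C57182, 3 were lower. Beside Ifi202b, the lower members included Ifi27l2a, which gave 46.9, 12.3 and 42 in C57 and 77.6 to 168.7 (median 116) in the others (-1.85 ± 0.33, adjusted p = 0.000366). Iigp1, an immunity-related GTPase, gave 2524, 2825 and 3122 against 3787 to 7888 (median 4328), with DBA highest at 7888, 7683 and 7611 (-0.87 ± 0.21, adjusted p = 0.00604), and its second probe set was not called (-0.64, adjusted p = 0.103). Trim12a was higher than in SJL and DBA but overlapped SMJ: it gave 26.8, 26.5 and 34.9 in C57 and 29.3, 21.5 and 11.1 in SMJ (1.72 ± 0.34, adjusted p = 0.0011). The lower side also held Igtp, Mx2 and Ifih1, and the higher side Ifi204, a further Ifi200 gene.

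Calls among plasma protein genes were mostly lower, but the size of the shift depended on the scaling. With quantile normalization the median went from -0.291 to -0.161 for the Serpin list and from -0.197 to -0.024 for the acute phase list. The calls were then 4 lower and none higher for Serpins, 5 lower and 1 higher for acute phase genes, and 2 each way for complement. Of 11 serine protease inhibitors of the Serpin family (Serpina genes, Serpinc1, Serpind1, Serpinf1 and Serpinf2), 5 were lower and none was higher (45.5%), with 2 lower without C57180. Serpinf2, or antiplasmin, gave 3879.7, 4038 and 3259 in C57 and 4381 to 5483 (median 5085) in the others (-0.43 ± 0.10, adjusted p = 0.00422; adjusted p = 0.0745 without C57182). Among 23 acute phase genes, Saa4, Lbp and Fgg were lower and none was higher (13%, near the 12.2% of all genes), with 6 lower without SJL1. Without SJL2, SMJ56, DBA113, C57180 or C57181, 2 were lower. Fgg lost its call in 5 leave-one-out fits, and also with 75th-percentile scaling (adjusted p = 0.0748). Saa4, the constitutive serum amyloid A, gave 953, 1212 and 997 against 1637 to 5641 (median 2208) (-1.19 ± 0.28, adjusted p = 0.00463). Lbp, which binds bacterial lipopolysaccharide, was below every SJL and SMJ array at 3275, 2595 and 2981 but overlapped DBA at 2248, 3101 and 2428 (-0.58 ± 0.12, adjusted p = 0.00157), and its second probe set was not called (-0.53, adjusted p = 0.128). Of 21 complement genes, 2 were higher and 3 lower (23.8%), and none was higher without C57182. C2 gave 792, 719.9 and 867 against 677 to 1459 (median 1141) (-0.44 ± 0.10, adjusted p = 0.00293), and both of its other probe sets were called lower. Hc, complement component 5, known to be disabled in some inbred strains including DBA/2, gave 4902, 4667 and 6373 in C57, 5597, 6706 and 5971 in SJL, 4809, 4772 and 5115 in SMJ and 1879, 2260.5 and 1726 in DBA. C57 differed from DBA by 1.44 (adjusted p = 5.33e-08), and its differences of -0.21 from SJL and 0.10 from SMJ did not pass (adjusted p = 0.376 and 0.733). The call against the mean (0.44 ± 0.11, adjusted p = 0.00949) was lost without C57182 (adjusted p = 0.163).

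Lipoprotein genes were lower for 5 and higher for 2 of 21 (33.3%), with 3 lower without C57180, 8 lower without SJL1 and none higher without C57182. Their median difference of -0.265 was -0.084 with quantile normalization. Scarb1, the receptor that takes up cholesterol from HDL, gave 1759.5, 1713 and 1305 in C57, 2030.4, 2188 and 2294 in DBA, 2199, 2559.7 and 2353 in SMJ and 3930.1, 3758 and 4040 in SJL (-0.78 ± 0.12, adjusted p = 3.25e-05). C57 was the lowest and SJL the highest, and both other probe sets of Scarb1 were called lower. Apon, an apolipoprotein of HDL and LDL, gave 4774, 5063 and 4417 against 5525 to 8805 (median 7254) (-0.61 ± 0.094, adjusted p = 7.02e-05). The medians of the P450 list beyond Cyp2, of the methionine list and of the respiratory chain list changed sign with quantile normalization, the last also with 75th-percentile scaling, and no direction is given for those lists as a whole.

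Genes already reported to vary between inbred strains gave 2 higher and 6 lower calls of 16 (50%). Those genes are known for such differences, so the share is no independent result. The called ones were Nnt, Ifi202b, Alad, Wdfy1, Hc, Glo1, Apoa2 and Naip5. Of 19 metal genes, 4 were higher and 2 lower (31.6%). Among the higher ones, Hfe, the hereditary iron overload gene, gave 911, 927 and 942 in C57 and 592 to 760 (median 618) elsewhere (0.48 ± 0.088, adjusted p = 0.00056), and its second probe set was higher by 2.04. Of 13 genes of the growth hormone axis, 2 were higher and 2 lower (30.8%), with none lower without C57180. Igfbp3, a carrier of IGF1, gave 421, 205 and 363 against 83.5 to 202 (median 136) (1.21 ± 0.23, adjusted p = 0.000681), and its second set was higher by 1.00. Cish was also higher, with a call lost without C57180 or C57182. Ghr and Bcl6 were lower, at -0.51 and -1.2, and all their other tested sets were called lower. Bcl6 also lost its call without C57182. Among class I MHC genes, Tapbp, which loads peptide, was lower (-0.54 ± 0.13, adjusted p = 0.0055) and H2-K1, read through sets marked as shared, was higher by 0.44, with a call lost without C57182 (adjusted p = 0.0903).

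Few markers of other cell types were called, and the lists are short beside a share of 12.2% over all genes. None of 10 neutrophil, 9 lymphocyte, 4 erythroid or 10 class II MHC genes was called, by limma's adjusted p. With so few genes, a lack of calls says little about these cell types. Of 12 stellate cell and fibroblast markers, Reln was lower (8.33%), with a call lost without C57182. Of 4 bile duct markers, Sox9 was higher (25%), with a call lost in 7 leave-one-out fits. Of 14 Kupffer cell and macrophage markers, Lyz2 was called higher (0.99 ± 0.20, adjusted p = 0.00164); it was low in SMJ, at 92.9, 101.9 and 94.9, and overlapped the other strains in C57, at 658, 590.5 and 534. The summed signal of the Kupffer cell list ran from 6240 to 6690 in C57, 7477 to 8753 in SJL, 4279 to 5201 in SMJ and 4735 to 5018 in DBA. The erythroid sum was 600.5 to 650.1 in C57, 335.8 to 344.6 in SJL, 192 to 232 in SMJ and 978.7 to 1024 in DBA. The lymphocyte sum was 309.7 to 334.7 in C57, 484.6 to 745.9 in SJL, 307.9 to 395 in SMJ and 325.2 to 709.4 in DBA. The erythroid and lymphocyte sums also count markers too low to be tested. Of 11 endothelial markers, Lyve1 and Pecam1 were called higher (18.2%). Lyve1, a hyaluronan receptor of liver sinusoids and lymphatics, gave 1563, 582 and 1336 against 130.4 to 615 (median 279) (2.07 ± 0.23, adjusted p = 5.23e-07), and its second probe set was higher by 1.71. Pecam1 differed by 0.45, with a call lost in 7 leave-one-out fits. The summed endothelial list ran from 3644 to 4756 in C57 and from 3018 to 4621 over the other strains. Of 13 pericentral hepatocyte markers, Tbx3 and Cyp1a2 were lower (15.4%), with 1 lower without C57180 or C57181 and 4 without C57182. One other set of Tbx3 was called lower (-1.28), and the remaining ones were not called (-0.11 and 0.61). Of 9 periportal markers Asl and Hsd17b13 were higher and Cyp2f2 lower (33.3%). Asl lost its call in 7 leave-one-out fits, with an adjusted p of 0.167 without C57182. Cyp2f2 gave 8261, 8346 and 9278 against 10422 to 17132 (median 11688) (-0.50 ± 0.11, adjusted p = 0.00345).

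The 0 h contrast was repeated in the mice killed 3 h and 6 h after the dose, which are other animals. It called 1640 genes (11.7%) at 3 h and 2754 (19.7%) at 6 h; fitted on the 12 arrays of 3 h alone, the first number was 776. At 3 h C57 was higher for 828 genes (5.92%) and lower for 812 (5.81%), and for 1017 and 658 with arrays divided by their 75th percentile. At 6 h it was higher for 1520 (10.9%) and lower for 1234 (8.83%). Of the 1707 genes called at 0 h, 805 were called the same way at 3 h, which is 47.2% of the 0 h list and 49.1% of the 3 h list, and 6 the opposite way. At 6 h the same way held for 759, which is 44.5% of the 0 h list and 27.6% of the 6 h list, and the opposite way for 32. Without C57182 the numbers of the same way were 585 at 3 h and 511 at 6 h. At both times the direction and call held for 535 genes (31.3%), 305 higher and 230 lower. The spread is estimated over all 36 arrays, so these calls are not fully independent.

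For 100 genes (0.715%) all 9 C57 arrays, over the 3 times, lay outside the range of all 27 other arrays, 56 above (0.401%) and 44 below (0.315%). Of these, 99 were called at 0 h, which is no separate result, since the choice already required separation of the 0 h arrays. They included Mndal, with C57 signals from 89.6 to 350.2 and no other array above 12.9, and Adi1, from 893.2 to 1602 against at most 110.8. Pttg1 ran from 461.2 to 725.1 in C57 against at most 132.9, and Defb1 from 229.9 to 710.4 against at most 152.5. The C57 difference of Nnt was -1.52 at 0 h, -1.35 at 3 h and -1.48 at 6 h. For Ctse it was -4.63, -4.91 and -4.30, and for Cap1 -3.10, -3.41 and -3.45.

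**Figure D4:**
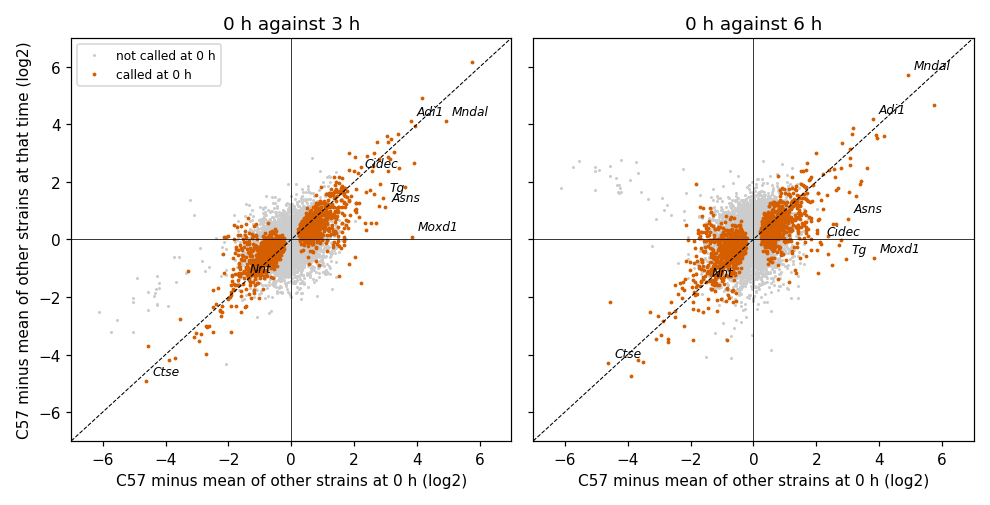
log2 difference at 0 h between C57 and the mean of the others (horizontal) and, in other mice, at 3 h or 6 h after the dose (vertical), with 1 point per gene, genes called at 0 h in orange and a dashed line of equal values. Mndal, Adi1 and Ctse lie near the line at both times, while Moxd1, Tg and Asns move toward 0. Genes called by their 0 h values can lie nearer to 0 in other mice through that choice alone.

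Other genes differed in C57 before the dose and no longer, or otherwise, after it. The test of the difference between the 6 h and the 0 h contrast called 651 genes (4.66%), with a more positive difference at 6 h for 306 (2.19%) and a more negative one for 345 (2.47%), and 204 of these were among the 1707, or 76 without C57182. The same test at 3 h called none with limma's adjusted p, while 1128 genes had an unadjusted p under 0.05. Both tests use the 0 h values by which genes were called or chosen. A gene chosen for a large difference at 0 h can give a smaller one in other mice through that choice alone. How much of the falls below comes from the choice and how much from the dose was not tested. Asns fell from 2.99 at 0 h to 0.73 at 6 h, with C57 means of 558 ± 193 and 252 ± 9.11 (SD, n = 3; limma adjusted p of the difference = 0.00465). Cidec went from 2.12 to -0.074: the C57 mean was 933 ± 117 at 0 h and 787 ± 469 at 6 h, while DBA went from 319 ± 216 to 1566 ± 141. Moxd1 had a C57 mean of 311 ± 235.6 at 0 h and 9.37 ± 9.83 at 6 h. Osgin1, lower in C57 at 0 h, no longer differed by call at 6 h, at -0.046 (adjusted p = 0.925). Cyp1a2 went the other way, from -0.84 to -3.49, with a C57 mean of 335 ± 253 at 6 h. The median of the 8 genes of pancreas, muscle and fat was -1.67 at 0 h and 0.117 at 6 h.

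**Figure D5:**
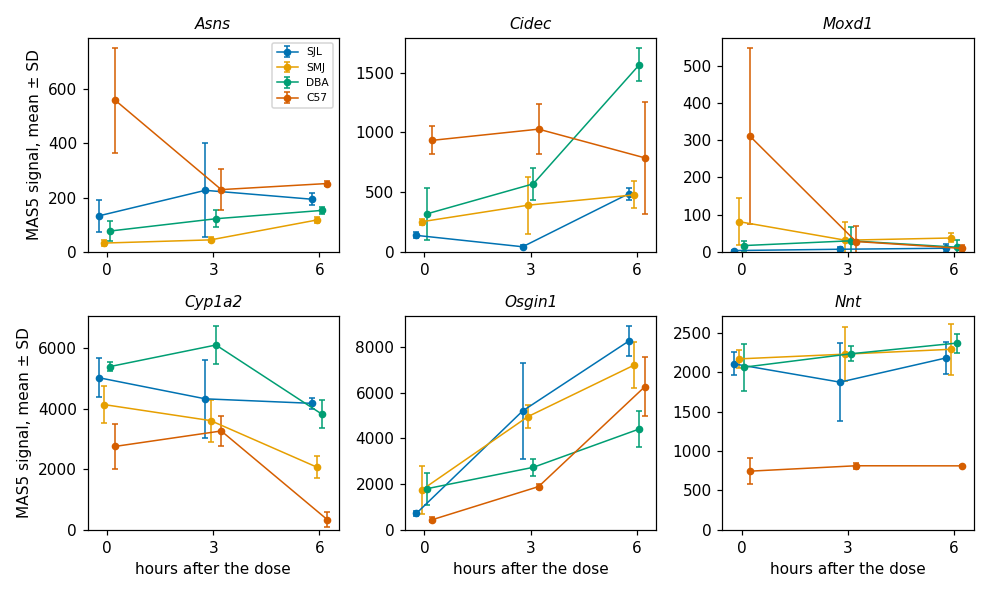
Mean MAS5 signal ± SD of 3 mice for 6 genes in the 4 strains at 0 h, 3 h and 6 h after the dose; different mice were used at each time, so the lines join groups and not animals, and bars are cut at 0. C57 starts above the other strains for Asns, Cidec and Moxd1 and below them for Cyp1a2 and Osgin1, while Nnt stays below them at all 3 times.

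Called genes were also placed by the order of genes in the RefSeq table of GRCm38.p6, used here for neighbourhood only. Of 13957 placed genes, 16.9% of the genes next to a called gene were themselves called, against 11.6% of those next to a gene that was not. Of 288 neighbouring pairs with both genes called, 86 were both higher, 92 both lower and 110 opposite. The longest run held 6 genes, Cldnd1, Riox2, Crybg3, Nsun3, Pros1 and 4930453N24Rik, all higher in C57, by between 0.37 and 1.3. Nnt headed a run of 4, with Paip1 lower and 4833420G17Rik and Tmem267 higher. Ifi202b was followed by Fmn2, Fh1 and Kmo, which were lower, higher and higher. Neighbours can share a variant, a family or a probe, and which of these holds was not tested.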

How the data were processed

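Liver RNA of 36 mice was measured on Affymetrix arrays, 1 mouse per array, in 12 groups of 3. The deposited intensity values are MAS5 signals on a linear scale, per the submitters' processing notes; the version of the software, the genome build and detection calls were not given in the sources used here. Every array had the same trimmed mean of 150, with 2% trimmed at each end. The number of arrays limits the precision.

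Signals were raised by 2.77, the 10th percentile, and put on the log2 scale, so that differences of low genes are understated. Of 45101 probe sets, 64 were controls, 34945 had 1 gene symbol, 932 several and 9160 none in the platform annotation; no name was taken from the last 2 kinds. Each of 18193 genes was read through its probe set with the highest mean log2 signal, passing over sets marked as shared where another existed. Genes above 30.8, the median of all values, on at least 3 arrays were tested, 13981 in all. A group-means model over all 36 arrays (limma 3.58.1, R 4.3.3; 24 residual degrees of freedom) gave two-sided moderated tests, with Benjamini-Hochberg adjustment over all genes tested and a threshold of 0.05. Probe sets were tested in the same way, adjusted over all 30393 of them. On simulated data the fit recovered 39% of genes changed 1.5-fold, 65% of those changed 2-fold and 91.5% of those changed 4-fold at 0 h, with 3.46% false calls. The simulation changed 200 genes at each fold, with normal noise independent between genes and no other strain or time effects. Its shares need not hold for these arrays.

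The named genes were the 15 largest called differences in each direction with all 3 C57 arrays outside the range of the other 9 and an official name (clone names and, beyond the rule as written, microRNA names were passed over; Mir1931 is the one affected), for every list at most 4 called members, ranked by p, and Bhmt2, Bhmt, Cyp2e1, Gclc, Nnt and Alb. Other genes named were chosen after their values were seen. The comparison, members and lists were chosen with earlier results of these data known. Each array is taken as 1 mouse from its label; where nothing more is said of the animals, p-values measure only the spread between these samples. Alternatives changed the offset, filter, scaling, arrays in the fit, spread model, probe set and each array in turn. Leave-one-out counts for the lists and derived counts were chosen after seeing the data.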

Additional observations from a re-analysis of the deposited data

Results flagged for a closer look

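For 17 of the genes named, the C57 difference from the other strains was tested to differ between the 6 h and the 0 h mice (limma, adjusted p under 0.05 over all genes). It was smaller or more negative at 6 h, on the log2 scale, for Moxd1 (-4.49), Tg (-3.62), Cyp1a2 (-2.66), Asns (-2.27), Cidec (-2.19), Sox9 (-2.16), Zfp994 (-1.78), Lyve1 (-1.38), Rora (-1.33) and Cyp2e1 (-1.20). It was larger or less negative for Osgin1 (1.46), Vcpkmt (0.80), Abcg5 (0.77), Wdfy1 (0.73), Gys2 (0.66), Reln (0.66) and Ugp2 (0.54). All but Cyp2e1 were called by the same 0 h values that enter this test, so a move toward 0 can come from that choice alone. The causes were not tested.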

How the results depend on the processing

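The 120 named genes kept direction and call with an offset of 1 or 16; 4 of them lost the call with 75th-percentile scaling, 6 with quantile normalization and 17 with only the 12 arrays of 0 h. The count of 1707 ranged from 1431 (only those 12 arrays, 1173 shared) to 1843 over these settings, the filters and the spread model, and from 887 to 1813 when 1 array was left out. Using the second probe set gave 689 genes, of which 263 were called the same way as before; fewer genes have one. The 3 h count was 776 with only its own arrays, and the list calls ranged from 73 to 125 without 1 array. With the second probe set the sign turned for Pi4kb (0.15), Hspa13 (0.55), Mgst3 (0.33), Mttp (-0.18), Lrp1 (0.57), Sdha (1.05), Ndufb8 (-0.18), Slc30a1 (0.069), Tbx3 (0.61), Hsd17b13 (-1.21) and Reln (1.35), and with the mean of all sets for Sdha (0.21) and Reln (0.43); the cause was not tested. No paired analysis was possible because the mouse numbers are not shared between groups. With 3 arrays a group and no detection calls, low signals and differences under about 2-fold are the least certain.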
